A study of Homo sapiens with 2 samples.

Results

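The WNT pathway was followed here through 6 genes of an adipogenesis PCR panel, namely the secreted antagonists Dkk1, Sfrp1 and Sfrp5, the coreceptor Lrp5, the scaffold protein Axin1 and the transcription factor Tcf7l2. They were picked by name for their place in the pathway, out of the 84 genes that the panel measures, and their symbols are written as in the deposited tables. The cells were HepG2, a human hepatoma line grown in medium with serum. The control sample was left untreated, and the other sample was kept for 72 h with MOES, the water extract made from seeds of Moringa oleifera. The sample's title gives a MOES dose of 5 mg/mL, whereas the array protocol in the labels gives 2.5 mg/mL, and the tables do not say which one they hold. Each group was 1 sample of a single cell line, so no value below has a replicate error and no p-value was computed.

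WNT ligands act by bringing a Frizzled receptor together with the coreceptor LRP5 or LRP6 at the cell surface. This stops a cytoplasmic complex, built on AXIN1, from marking beta-catenin for destruction, and beta-catenin then works in the nucleus with TCF/LEF factors such as TCF7L2. DKK1 blocks the pathway by binding the coreceptors, and SFRP1 and SFRP5 do so by binding the ligands themselves. WNT signalling is known for holding back the formation of fat cells, which is why its genes stand on an adipogenesis panel. In the liver it patterns the metabolism of the lobule, and HepG2 cells are known to carry a shortened, stabilised beta-catenin, which acts downstream of the ligands, the antagonists and the coreceptor.

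A signal under the ceiling of the measurement was seen in both samples for 4 of the 6 genes, which are called measurable here. The part of genomic DNA in these signals was not tested. Relative to the reference genes B2m, Gusb and Hsp90ab1, Tcf7l2 was 9.32-fold lower after MOES, Lrp5 was 6.32-fold lower and Sfrp1 was 5.94-fold lower. Sfrp5 had a fold change of 0.518, which is within the spread between wells if its whole-cycle MOES value is taken as exact. The direction depended on the reference. Against Gapdh alone, which reached the ceiling after MOES, all 4 had log2 fold changes above 0, with lower bounds from 3.31 to 5.58. Sfrp5 was also above 0 with all 5 reference genes (at least 0.54) or the median Ct of the panel (0.55). Dkk1 and Axin1 stood at the ceiling of the measurement in both samples, so their change is unknown. A lower limit of 0.5 on the fold change was passed by Sfrp1, Lrp5 and Tcf7l2, which is 3 of the 6 genes (50%), and the upper limit of 1.5 was passed by 0 of the 6. Over the whole panel, 67.9% of the genes lay below 0.5 and 8.33% above 1.5, so a fold change below 0.5 was the commonest result on this plate and does not set these genes apart. Among the 59 genes of the panel with a signal under the ceiling in both samples, 66.1% lay below 0.5, against 3 of the 4 measurable genes here.

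The values are threshold cycles (Ct), the PCR cycle in which the fluorescence of a well passes a fixed line, and a well that passes it 1 cycle later held less template by about a factor of 2. The deposited Ct values go no higher than 35. The delta Ct subtracts from each Ct the average over the 3 reference genes, 24.92 for the control and 24.93 after MOES. The other 2 reference genes were later in the MOES sample, Actb with a Ct of 34.05 and 35 and Gapdh with 28.46 and 35. The 3 wells that follow reverse transcription (RTC) went from between 31.41 and 32.1 to 35, and the 3 wells with their own template (PPC) were at 35 in both samples, so nothing on the plate shows that the PCR worked in a well at 35. Against the 3 reference genes, the RTC wells had log2 fold changes of at most -3.58, -2.98 and -2.89, if the PCR worked. Those of Tcf7l2, Lrp5 and Sfrp1 were -3.22, -2.66 and -2.57. Whether reverse transcription differed between the samples was not tested. The control RTC wells had an SD of 0.375 cycles, which gives 0.530 for a difference between single wells. This SD comes from a few late wells of a single plate and holds no biological variation. The labels name the human version of the array, but the tables write symbols in the mouse style, call the genomic DNA control MGDC, the manufacturer's name for the mouse control, and list mouse clone names as aliases. Whether the wells held human or mouse primers was not tested, and a Ct of 35 would read differently in each case. The panel holds no gene that defines a hepatocyte, and Agt, a gene that liver cells express, went from a Ct of 33.91 to the ceiling.

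Promoters of the human genes are shown to set the coreceptor and the transcription factor, which were both measurable, beside the antagonist Dkk1, which gave no signal under the ceiling. The windows run from 250 bases before to 50 bases after the start of the gene, are taken from RefSeq on the build GRCh38.p14 and read 5′ to 3′ on the strand of the gene. DKK1 is at chr10:52314031-52314330 on the plus strand, LRP5 at chr11:68312341-68312640 on the plus strand, and TCF7L2, of which the first of 3 listed starts is shown, at chr10:112949997-112950296 on the plus strand. Capitals mark matches on either strand to CTTTGA, the core bound by TCF/LEF factors (TCAAAG on the other strand), and to TATAAA, the TATA box.
DKK1: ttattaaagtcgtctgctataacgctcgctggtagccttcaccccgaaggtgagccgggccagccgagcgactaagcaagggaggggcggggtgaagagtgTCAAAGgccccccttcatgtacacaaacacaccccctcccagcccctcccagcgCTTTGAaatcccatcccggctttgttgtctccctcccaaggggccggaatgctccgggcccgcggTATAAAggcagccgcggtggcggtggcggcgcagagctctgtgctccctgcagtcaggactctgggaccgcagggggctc
LRP5: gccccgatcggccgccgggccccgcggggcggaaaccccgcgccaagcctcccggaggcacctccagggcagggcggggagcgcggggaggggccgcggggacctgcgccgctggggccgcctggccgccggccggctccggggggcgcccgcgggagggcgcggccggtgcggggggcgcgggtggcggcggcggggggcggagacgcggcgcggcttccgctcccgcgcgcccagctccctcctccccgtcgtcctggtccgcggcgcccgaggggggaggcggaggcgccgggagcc
TCF7L2: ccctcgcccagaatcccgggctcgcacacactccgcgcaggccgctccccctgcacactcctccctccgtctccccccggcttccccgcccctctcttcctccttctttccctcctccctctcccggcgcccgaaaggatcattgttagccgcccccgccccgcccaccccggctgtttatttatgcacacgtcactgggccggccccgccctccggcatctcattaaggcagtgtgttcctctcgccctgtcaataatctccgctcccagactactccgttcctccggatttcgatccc

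The DKK1 window held 2 matches to CTTTGA, which began 149 and 95 bases before the start, and a TATAAA 30 bases before it. DKK1 is known as a gene that WNT signalling itself can switch on. Of 35116 windows of the same length, 12.9% held at least 1 match to CTTTGA, 1.29% held 2 or more, and 11.5% held a TATAAA. The LRP5 window held neither motif and was 86.7% G and C, and the TCF7L2 window held neither and was 65.7% G and C, against a median of 58.7% over all windows. The DKK1 window was 63.7% G and C, close to that of TCF7L2. At starts 2 and 3 of TCF7L2, which are not shown, the share was 42.7% and 48.7%. Windows were found for 5 of the 6 genes. The AXIN1 and SFRP5 windows also held neither motif and were 78% and 77.3% G and C, although Axin1 was at the ceiling and Sfrp5 was measurable. A match to these letters is not a binding site, and the lack of one says nothing on the factor.

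Sfrp1, which encodes a secreted protein with a Frizzled-like domain, crossed at cycle 29.42 in the control and at cycle 32 after MOES. Its delta Ct was 4.50 and 7.07, and its template was 4.41% and 0.743% of that of the reference genes. The well was thus 2.58 cycles later after MOES, with a log2 fold change of -2.57. Shares of the reference genes, here and below, treat all primers as equal and do not rank the amounts of RNA.

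Sfrp5, a related antagonist that adipose tissue also secretes, crossed at cycle 31.04 in the control and, like Sfrp1, at cycle 32 after MOES. Its delta Ct was 6.12 and 7.07, and its log2 fold change was -0.95. The fold change of 0.518 lay just above the limit of 0.5, and the shift of 0.96 cycles was smaller than 2 SD of a difference between single wells, which is 1.06 cycles. Sfrp5 is therefore the measurable gene whose difference, as deposited, is within the spread between wells. With its MOES well 0.5 cycle later or earlier, its log2 fold change was -1.45 or -0.45, so the whole-cycle value does not settle this.

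Dkk1, the antagonist of the coreceptors, had a Ct of 35 in both samples. If the PCR worked, its template was at most 0.0922% of that of the reference genes in the control and at most 0.0928% after MOES. A decrease after MOES could not have been seen in this well, and an increase was not seen.

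Lrp5, the coreceptor, was the earliest of the 6 wells in both samples, at cycle 27.33 in the control and cycle 30 after MOES. Only 11 of the 84 gene wells were earlier in the control, and 15 were earlier in the MOES sample. Its delta Ct was 2.41 and 5.07, its template was 18.8% and 2.97% of that of the reference genes, and its log2 fold change was -2.66.

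Tcf7l2, the nuclear partner of beta-catenin, crossed at cycle 28.77 in the control and at cycle 32 after MOES. Its delta Ct was 3.85 and 7.07, its template was 6.92% and 0.743% of that of the reference genes, and its log2 fold change of -3.22 was the lowest of the 4. Axin1, the scaffold of the complex that destroys beta-catenin, had a Ct of 35 in both samples, as Dkk1 did, with the same bounds.

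**Figure D1:**
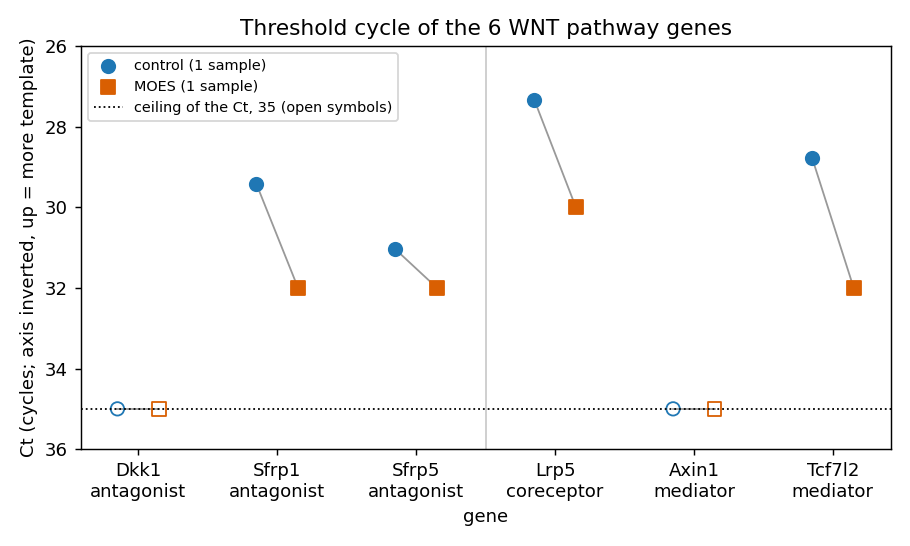
Ct of the 6 genes in the control (circles) and MOES (squares) sample, 1 sample each, on an inverted axis in cycles. The wells of Sfrp1, Sfrp5, Lrp5 and Tcf7l2 are later in the MOES sample, 3 of them at a Ct of 32, while Dkk1 and Axin1 lie on the dotted ceiling at 35.

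In the control the measurable wells came in the order Lrp5, Tcf7l2, Sfrp1 and Sfrp5. Tcf7l2 followed Lrp5 by 1.44 cycles and Sfrp5 followed Sfrp1 by 1.62 cycles, each more than 2 SD of a difference between wells, while Tcf7l2 and Sfrp1 lay 0.65 cycles apart, which is less. The order is one of wells with different primers, so it does not rank the amounts of RNA. In the MOES sample the 4 wells held only Ct values of 30 and 32, since the values of all 59 genes under the ceiling were whole numbers there. Sfrp1, Sfrp5 and Tcf7l2 were among the 21 genes of the panel with a MOES Ct of 32. The range of the 4 wells narrowed from 3.71 cycles in the control to 2 cycles in the MOES sample. Because 3 of the 4 have the same MOES value, the differences in fold change among Sfrp1, Sfrp5 and Tcf7l2 are equal to the differences between their control wells.

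If each MOES value stands for a range of 0.5 cycle to either side, the fold change lay between 0.0759 and 0.152 for Tcf7l2, between 0.112 and 0.224 for Lrp5 and between 0.119 and 0.238 for Sfrp1. These 3 ranges overlap and all lie below 0.5. The range for Sfrp5 ran from 0.366 to 0.732 and held the limit of 0.5. With the control wells rounded to whole cycles in the same way, Sfrp1, Lrp5 and Tcf7l2 each had a log2 fold change of -2.99 and could not be told apart, and Sfrp5 had -0.99.

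The extracellular inhibitors were then compared with the receptor and mediator genes. Of the 3 antagonists, 1 had a fold change below 0.5, against 2 of the 3 others, and each group had 1 gene at the ceiling in both samples. The median log2 fold change of the measurable genes was -1.76 for the antagonists and -2.94 for the coreceptor and mediators, so that the antagonists were higher by 1.18. With the MOES wells of the 2 groups moved by 0.5 cycle in opposite directions, as their rounding allows, the difference was 0.18 or 2.18. With Dkk1 and Axin1 entered at no change, the medians were -0.95 and -2.66. A change of reference genes leaves this difference as it is, because it adds the same amount to every gene. The groups rest on 2 measurable genes each, and genes are not replicates, so no test was made. The difference was carried by Sfrp5. Sfrp1 and Lrp5 differed by only 0.09 in log2 fold change, far less than the SD of 0.750 that the RTC wells give for a difference between 2 such changes. Of the 6 pairs among the 4 genes, 3 differed by more than 2 of these SDs, namely those of Sfrp5 with Sfrp1 (1.62), with Lrp5 (1.71) and with Tcf7l2 (2.27). The other 3 pairs, of Sfrp1, Lrp5 and Tcf7l2, differed by between 0.09 and 0.65. The SD does not include the whole-cycle steps of the MOES wells.

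Other WNT genes of the panel were counted in the same way, from a list of the 5 ligands and 3 genes known as targets of beta-catenin and TCF. Of the 5 ligands, 3 lay below 0.5. Wnt3a, a ligand of the beta-catenin branch, went from a Ct of 27.82 to 34 and was 72.0-fold lower, the lowest of the 59 measurable genes. Wnt10b and Wnt1, also of that branch, reached 35 in the MOES sample from 32.41 and 33.26. If the PCR worked in these wells, Wnt10b was at least 5.98-fold lower and Wnt1 at least 3.32-fold lower. Wnt5a, which mostly signals without beta-catenin, had a Ct of 31.86 and 32 and a log2 fold change of -0.13. Wnt5b was at 35 in both samples, like Dkk1 and Axin1.

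Of the 3 target genes, 2 lay below 0.5 and 1 lay above 1.5. Jun, a subunit of the AP-1 transcription factor, went from a Ct of 30.2 to 35 and, on the same condition, was at least 27.7-fold lower. Ccnd1, which encodes cyclin D1, went from 30.79 to 32, a fold change of 0.435. With its MOES well 0.5 cycle later or earlier the fold change was 0.308 or 0.616, a range that held the limit of 0.5. Ppard, a nuclear receptor for fatty acids, went from 32.78 to 32, a fold change of 1.73, but the shift as deposited was smaller than 1.06 cycles and so within the spread between wells. With the MOES well of Ppard 0.5 cycle later or earlier, its log2 fold change was 0.29 or 1.29, so this is not settled. In all, 5 of these 8 genes (62.5%) lay below 0.5 and 1 lay above 1.5, beside 67.9% and 8.33% of the panel. Wnt1, Wnt10b and Jun are counted below 0.5 on MOES wells at 35, and the panel's share counts such wells too. The 5 became 4 with the MOES wells 0.5 cycle earlier or the control wells rounded. The median log2 fold change of the ligands and targets, bounds entered as they stand and Wnt5b left out, was -1.73. That of the 4 measurable antagonist, coreceptor and mediator genes was -2.62, and that of the panel on the same terms was -1.92.

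**Figure D2:**
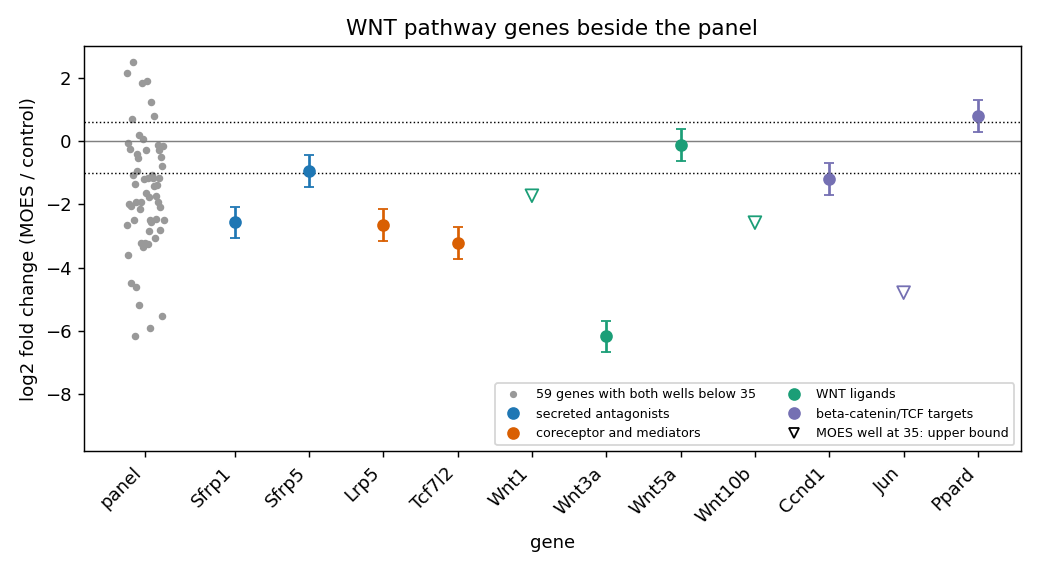
Log2 fold change, MOES over control, of WNT genes with a known change, beside the 59 measurable genes of the panel (grey). Bars span 0.5 cycle to either side of the MOES well, open triangles are upper bounds from a MOES well at 35, and dotted lines mark fold changes of 1.5 and 0.5. Sfrp1, Lrp5 and Tcf7l2 lie between -2.57 and -3.22, inside the spread of the panel.

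Within the panel, the log2 fold change of Tcf7l2 ranked 11th from the lowest of the 59 measurable genes, that of Lrp5 ranked 15th, that of Sfrp1 ranked 16th and that of Sfrp5 ranked 40th. Against the median of all 84 genes, -1.78 with wells at 35 entered as they stand, Tcf7l2 differed by -1.45, Lrp5 by -0.89, Sfrp1 by -0.80 and Sfrp5 by 0.83. The gaps of Lrp5, Sfrp1 and Sfrp5 were each smaller than 1.06, which is 2 SD for the change of 1 gene. The gap of Tcf7l2 was larger than 1.06. All 4 gaps were smaller than 2 SD for 2 single genes set against each other, where the SD is 0.750. A median of 84 genes is not a single gene, so the limit of 1.06 is the closer one here. Neither limit includes the whole-cycle steps of the MOES wells.

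The genes with the most similar values over the 2 samples were sought by the distance in delta Ct, among genes whose wells were likewise under or at the ceiling. Tcf7l2 lay 0.01 cycles from Nr0b2, a repressor among the nuclear receptors, and 0.03 cycles from Cebpb, a transcription factor of early fat cell formation. Sfrp1 lay 0.08 cycles from Ucp1, the uncoupling protein of brown fat, and 0.41 cycles from Foxo1, a transcription factor held in check by insulin. Sfrp5 lay 0.16 cycles from Cebpa and 0.21 cycles from Bmp4. These 6 neighbours all had a MOES Ct of 32. Lrp5 had no close neighbour, the nearest being Irs1 at 0.74 cycles and Retn at 1.04 cycles. Dkk1 and Axin1 shared both values with the 4 other genes at 35 in both samples, among them Bmp2 and Bmp7. Likeness over 2 samples is a description of these wells only.

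The well for genomic DNA, MGDC, crossed at cycle 29.9 in the control and at cycle 29.56 after MOES. In the MOES sample it was earlier than the wells of all 6 genes, Lrp5 included, and in the control it was earlier than 3 of them, Sfrp5, Dkk1 and Axin1. The part of genomic DNA in the Ct of these genes was not tested.

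The direction of the changes depended on the reference. With B2m, Gusb or Hsp90ab1 alone, the log2 fold changes of the 4 measurable genes moved by no more than 0.01. This follows from their nearly equal Ct values in the control and MOES samples. These were 23.82 and 23.82 for B2m, 25.65 and 25.66 for Gusb, and 25.28 and 25.3 for Hsp90ab1. In the MOES sample these reference wells held decimals, unlike the gene wells under the ceiling. Against Actb alone, Tcf7l2 had a log2 fold change of -2.28, Lrp5 of -1.72, Sfrp1 of -1.63 and Sfrp5 of -0.01. Averaging the 5 reference genes, the values were -1.73, -1.17, -1.08 and 0.54 in the same order. Against Gapdh alone all 4 were higher in the MOES sample, by at least 3.31 for Tcf7l2 and at least 5.58 for Sfrp5. Because both Actb and Gapdh had reached 35 after MOES, values against either of them, or against the mean of all 5, are lower bounds and do not show that Tcf7l2, Lrp5 and Sfrp1 lie below a fold change of 0.5. Which of the reference genes kept their level cannot be told apart in these 2 samples.

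**Figure D3:**
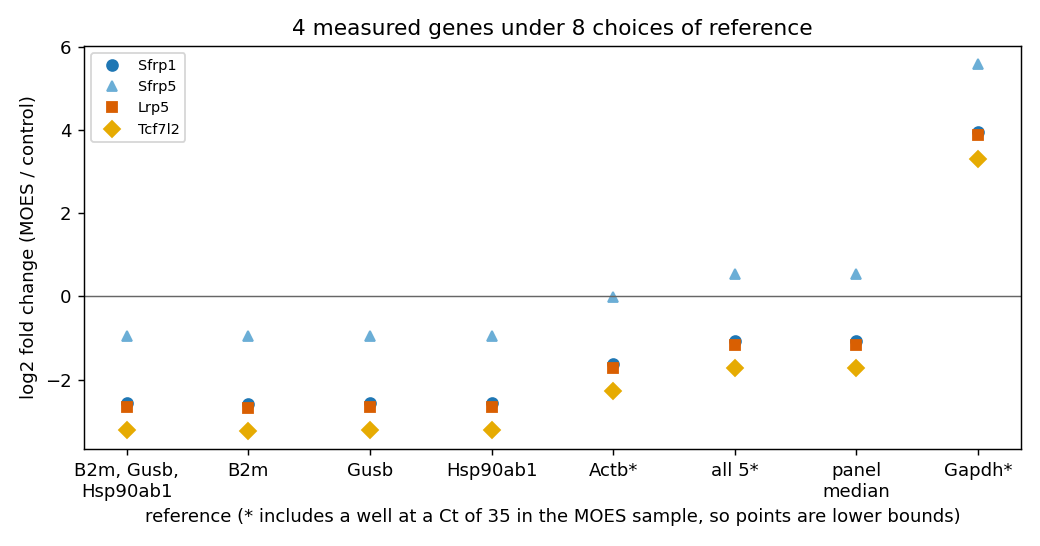
Log2 fold change, MOES over control, of the 4 measurable genes (symbols) under each choice of reference on the horizontal axis. All 4 genes shift together, and they lie above 0 with Gapdh alone, where the lower bounds are 3.31 for Tcf7l2 and 5.58 for Sfrp5. Points with Actb alone or all 5 reference genes are lower bounds as well.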

How the data were processed

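Quantitative PCR was run on 2 samples of HepG2 cells, 1 control and 1 MOES, which were assigned to columns by the group names in the tables. Per the labels, total RNA was extracted with TRIzol and its cDNA was amplified on an adipogenesis array of 96 wells. Normalization was done in the array manufacturer's online software. The authors deposited the Ct of each well and the delta Ct, which is a log2 scale with its sign turned. The number of wells behind each value is not given, and the standard deviation columns hold no numbers. The deposited delta Ct equalled the Ct minus the mean of B2m, Gusb and Hsp90ab1 within 0.0057 cycles, the closest of 31 subsets of the reference genes. A table of levels, redundant with the delta Ct, and a table of the authors' own fold changes were not used.

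A log2 fold change was the control delta Ct minus the MOES delta Ct, and the fold change its antilog in base 2. A MOES Ct of 35 with an earlier control well gave a bound, and 35 in both samples gave no fold change. The limits, 1.5 and 0.5, follow the study's methods. For each gene, the 2 genes nearest in delta Ct were named. The members and lists were chosen with earlier results of these data known. The alternatives were 19 settings, 3 of them (genes at 35 in both samples entered at no change, and the MOES wells of the 2 groups moved by 0.5 cycle in opposite directions, either way) added after seeing the data. Precision is limited by a single deposited value per gene and sample, and the spread was taken from the RTC wells. The arithmetic was checked on simulated wells with known changes. These had no ceiling, whole-cycle values, noise or shift of the reference genes, so the check does not bear on those limits. Python 3.11.15, numpy 2.4.6, pandas 2.3.3 and matplotlib 3.10.9 were used.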

Additional observations from a re-analysis of the deposited data

Results flagged for a closer look

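The genomic DNA control well, MGDC, which enters no comparison of genes, crossed earlier after MOES, at cycle 29.56 against 29.9, a log2 fold change of 0.35 relative to the 3 reference genes. This difference is below 1 SD between single wells (0.530 cycles), and its bearing on the WNT genes was not tested.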

How the results depend on the processing

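No paired analysis was possible because the control and the MOES sample stand alone in their groups. The difference of 1.18 between the medians of the antagonists and of the coreceptor and mediators was computed under 16 alternatives. A change of reference or a common shift of the MOES wells cannot move it by construction. Setting Ct values above 32 to 32 could not move it either, because the wells of the 4 measurable genes were at 32 or earlier. Nor could leaving out genes at 35, because Dkk1 and Axin1 did not enter the medians. Most of the alternatives are thus no check on this difference. It was 1.0 with the control wells rounded, 1.71 with genes at 35 in both samples entered at no change, and 0.18 or 2.18 with the MOES wells of the groups moved by 0.5 cycle in opposite directions. The count of 3 genes below 0.5 was 0 against Gapdh alone and 3 or 4 under the other alternatives run on it. With Actb alone or all 5 reference genes the 3 is a maximum, because these references include a well at the ceiling after MOES and the log2 fold changes are lower bounds. The medians of the antagonists and of the coreceptor and mediators, in this order, were -0.27 and -1.45 with the mean of all 5 reference genes, -0.82 and -2.0 with Actb alone, -0.26 and -1.44 against the panel median, and 4.77 and 3.59 with Gapdh alone. The medians with all 5 reference genes, with Actb alone or with Gapdh alone are lower bounds. The antagonists' median was -0.95 with genes at 35 in both samples entered at no change. Sfrp5 had a log2 fold change of at least 0.54 with all 5 reference genes and of 0.55 with the median Ct of the panel. Against Gapdh alone, Sfrp1 had at least 3.96, Sfrp5 at least 5.58, Lrp5 at least 3.87 and Tcf7l2 at least 3.31. A reference adds a constant by construction. The 5 other WNT genes below 0.5 became 4 with the MOES wells moved 0.5 cycle earlier or with the control wells rounded. There were 3 with Ct values above 32 set to 32, with the median Ct of the panel, with Actb alone and with all 5 reference genes. There were 2 with genes at 35 in either sample left out, and 0 with Gapdh alone. The ceiling hides any decrease of Dkk1 and Axin1, and whole-cycle MOES values limit each fold change to about a factor of 2.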
